A study of Homo sapiens with 12 samples.

Results

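RAB genes encode the largest family of small GTPases, the proteins that label membrane compartments and direct vesicles between them. This account covers the 59 genes of the array whose symbol is RAB, a number and at most a letter and a further digit, out of 19774 genes measured. Membership went by symbol alone, but the family was picked with earlier results of these data known. The brightest probe set of each gene, by its mean over the 12 arrays, stood for it. The arrays held total RNA from 3 established cell lines, HUTU-80, MDST8 and NCI-H716, which the labels call colorectal cancer lines whose miR-200 loci are methylated. Each line was hybridised as a control (3 arrays), after lentiviral transduction with the miR-200c141 cluster (4 arrays, since HUTU-80 had a pair titled 1:3 and 1:5) and after transduction with the miR-200ba429 cluster (3 arrays). MDST8 and NCI-H716 cells also received both clusters (2 arrays), the miR-200c141 virus being added to miR-200ba429 cells 24 h after sorting. Transduced cells were sorted on GFP at 48 h and RNA was taken on day 7, so the design models overexpression from a virus rather than activity of the cells' own loci. The labels do not say what the control cells received or what the ratios in the HUTU-80 titles stand for.

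A RAB protein cycles between a GTP-bound form on a membrane and a GDP-bound form. Exchange factors load GTP, GTPase-activating proteins stimulate its hydrolysis, and prenylation with cytosolic carriers moves the protein between membrane and cytosol. The GTP-bound form recruits effectors, among them motors, tethers and coiled-coil adaptors. In epithelia, RAB11A, RAB25, RAB17 and RAB8 proteins with the motor MYO5B are known for carrying cargo to the apical surface, while RAB3 and RAB27 proteins act in regulated secretion. The miR-200 family is known for repressing ZEB1 and ZEB2, transcriptional repressors of epithelial genes.

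The mature miRNAs of the constructs are shown because both clusters carry the same pair of seeds, the bases 2 to 8 by which a miRNA pairs with its targets, here in capitals. The sequences are from RefSeq on GRCh38.p14, all on the plus strand. The miR-200c141 cluster lies on chromosome 12 (miR-200c-3p at chr12:6963742-6963764, miR-141-3p at chr12:6964155-6964176). The miR-200ba429 cluster lies on chromosome 1 (miR-200b-3p at chr1:1167160-1167181, miR-200a-3p at chr1:1167916-1167937, miR-429 at chr1:1169055-1169076).
hsa-miR-200c-3p: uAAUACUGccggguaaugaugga
hsa-miR-200b-3p: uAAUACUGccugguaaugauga
hsa-miR-429: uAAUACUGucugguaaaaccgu
hsa-miR-141-3p: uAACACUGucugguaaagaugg
hsa-miR-200a-3p: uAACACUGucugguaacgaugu
The first 3 share the seed AAUACUG and the others share AACACUG.

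The values were log2 intensities with medians between 3.60 and 3.66 on the 12 arrays, and the highest of the 23 probe sets for nonspecific signal, 5.43, served as the background level. ZEB1, the check that the constructs acted, was lower on all 9 construct arrays than in the control of its line. It fell by 2.11 ± 0.27 (SE) on the log2 scale with both clusters (limma adjusted p = 0.00224). Of 8 epithelial markers, 1 was above background in the HUTU-80 and MDST8 controls and 5 in NCI-H716, so most markers of the labelled epithelial cancer were below background in HUTU-80 and MDST8. CDH1 was below background in all 3 controls, while CDH17, VIL1, KRT20 and CDX2, intestinal markers, were above it in NCI-H716 alone. The endothelial markers were below background throughout, as were the immune ones except LYZ in NCI-H716.

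The family was well represented. Above background on all 12 arrays were 32 RAB genes (54.2%, against 37.6% of all genes), above it on none were 11 (18.6%, against 40.8%), and 16 were above it on some arrays. Of the 59, 58 are protein coding and RAB28P5 is a pseudogene.

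With both clusters, RAB31, RAB8B and RAB5A fell and RAB3B, RAB27A, RAB17, RAB1A and RAB11A rose, RAB17 below the background level on all 12 arrays. The largest changes were 3.29-fold upward for RAB3B, a GTPase of secretory vesicles, and 3.08-fold downward for RAB31, a GTPase of transport from the trans-Golgi to endosomes. These 8 of 59 members (13.6%) passed the test, a limma fit with a term for the cell line whose p, adjusted by Benjamini-Hochberg over every gene, had to be under 0.05, against 6.14% of all genes. Upward calls numbered 5, RAB17 included, against a background of 2.33%, and downward calls numbered 3 against a background of 3.81%. Over the family, 34 members had a positive estimate and 25 a negative one, with a median of 0.07 on the log2 scale against 0.00 over all genes. HUTU-80 has no array with both clusters. Cells with both clusters also had a further round of virus after sorting, which the labels give for no other array. Effects of that virus and of the added cluster cannot be told apart. The fit held all 11 samples, so HUTU-80 and the single-cluster arrays also entered these estimates and their spread. Without HUTU-80 the estimate was -1.75 for RAB31 and -1.49 for RAB8B. As the arrays measure bulk RNA, fewer cells with a transcript and less of it per cell cannot be told apart. An array measure of RNA integrity moved with the group: the difference between the 3′ and 5′ probe sets of ACTB was 2.02 in MDST8 with both clusters against at most 1.54 in the other MDST8 arrays, and 2.63 against at most 2.40 in NCI-H716. With that difference as a covariate, 0 of the 59 members and 0 of 19774 genes passed, so ZEB1 did not pass either. As the difference was highest with both clusters in each line that had them, this fit separates it poorly from the group. The estimates became -0.93 for RAB31, -1.26 for RAB8B and -0.20 for RAB5A. Those of the other calls were 1.88 for RAB3B, 1.89 for RAB27A, 1.11 for RAB17, 0.35 for RAB1A and 0.47 for RAB11A. The part of the ACTB difference in the result was not tested beyond that fit.

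**Figure D1:**
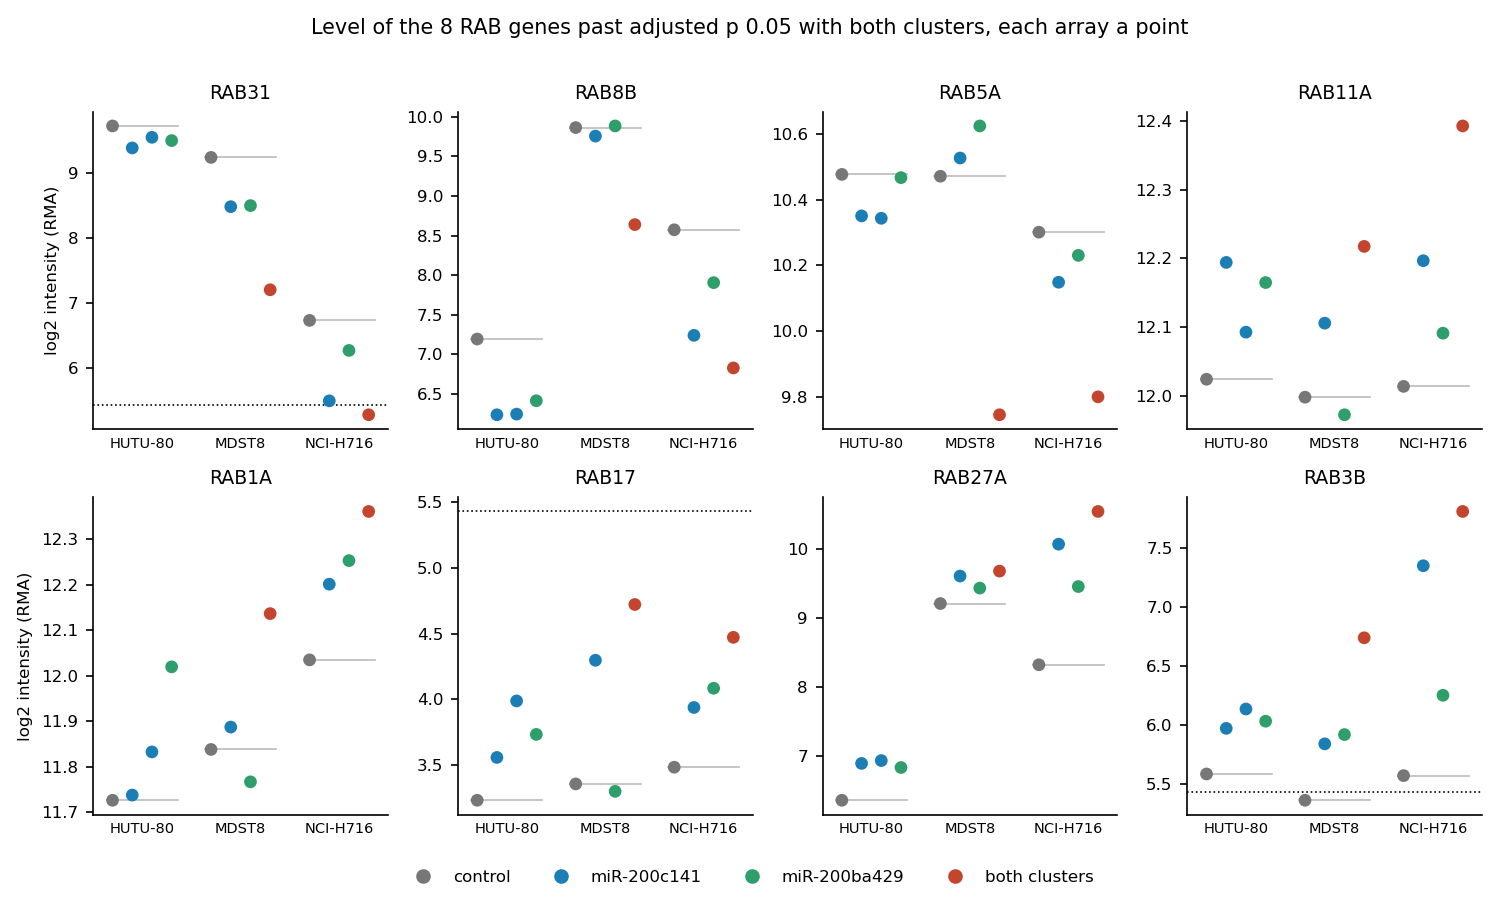
Log2 intensity (vertical axis, a separate range for each gene) of the 8 RAB genes that passed with both clusters, on each of the 12 arrays, grouped by line and coloured by construct. Grey lines mark the control of each line and the dotted line the background of 5.43 where it is in range. RAB5A lies near its controls in every singly transduced array and lower in the 2 arrays with both clusters, and RAB17 lies below background throughout.

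RAB31 was the steepest fall in the family. In MDST8 its level was 9.24 in the control, 8.48 with miR-200c141, 8.50 with miR-200ba429 and 7.20 with both clusters. In NCI-H716 it was 6.73 in the control, 5.49 with miR-200c141, 6.26 with miR-200ba429 and 5.27 with both clusters, the last below background. In HUTU-80 it was 9.73 in the control, 9.39 and 9.55 on the miR-200c141 arrays and 9.50 with miR-200ba429. It was the only member lower than its control on all 9 construct arrays, and the array with both clusters was the lowest in each line that had one. The fitted change with both clusters was -1.62 ± 0.24 (SE, adjusted p = 0.00470). All 3 of its probe sets passed, here and below with p adjusted over all probe sets, with changes between -1.62 and -1.43.

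RAB8B, which delivers cargo from the Golgi to the plasma membrane, was lower than its control on 8 of 9 construct arrays. In MDST8 it stood at 9.86 in the control, 9.76 with miR-200c141, 9.88 with miR-200ba429 and 8.64 with both clusters. In NCI-H716 it stood at 8.57, 7.24, 7.90 and 6.83 in the same order. In HUTU-80 it was 7.19 in the control against 6.24 on both miR-200c141 arrays and 6.41 with miR-200ba429. The differences from control with single clusters were -0.11 and 0.02 in MDST8 and between -1.33 and -0.67 in the other lines, and the response did not pass the test between lines. The fitted change with both clusters was -1.56 ± 0.23 (adjusted p = 0.00453), and all 3 probe sets passed. Its close relative RAB8A had an estimate of 0.13 ± 0.11 and did not pass (adjusted p = 0.528, 95% interval -0.10 to 0.36).

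RAB5A, the GTPase of early endosome fusion, separated the arrays with both clusters from the rest. In MDST8 its level was 10.47 in the control, 10.53 with miR-200c141, 10.63 with miR-200ba429 and 9.74 with both clusters. In NCI-H716 it was 10.30, 10.15, 10.23 and 9.80, and in HUTU-80 10.48 in the control, 10.35 and 10.34 with miR-200c141 and 10.47 with miR-200ba429. The arrays with both clusters did not overlap with the other 10. The fitted change was -0.63 ± 0.11 (adjusted p = 0.00940), while single clusters gave -0.08 ± 0.09 and 0.02 ± 0.09. Its relatives gave -0.06 ± 0.22 for RAB5B and -0.07 ± 0.15 for RAB5C, neither of which passed. The other RAB5A probe set had a change of -0.82 that did not pass (adjusted p = 0.0695). Without the MDST8 array with both clusters the change was -0.45 (adjusted p = 0.0677), and without HUTU-80 it was -0.62 (adjusted p = 0.0596).

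RAB3B was the steepest rise. Its level was 5.58 in the HUTU-80 control and 5.97, 6.14 and 6.03 on the construct arrays of that line, in the order miR-200c141 1:3, miR-200c141 1:5 and miR-200ba429. In MDST8 it went from 5.36, just below background, to 5.84 and 5.92 with miR-200c141 and miR-200ba429 and to 6.74 with both clusters. In NCI-H716 the control was at 5.57, and miR-200c141, miR-200ba429 and both clusters gave 7.35, 6.25 and 7.81. All 9 construct arrays were above their control, and both clusters gave the highest value within each line that had them. The fitted change was 1.72 ± 0.30 (adjusted p = 0.0100), with 4 of 5 probe sets past the threshold. Without the NCI-H716 control it was 1.42 (adjusted p = 0.0503).

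RAB27A, which docks secretory granules and lysosome-related organelles, was also higher on all 9 construct arrays. The rise was widest in NCI-H716, from 8.32 in the control to 10.07 with miR-200c141, 9.46 with miR-200ba429 and 10.55 with both clusters. In MDST8 the same order gave 9.21, 9.61, 9.44 and 9.68, and in HUTU-80 the control was at 6.36 and the construct arrays between 6.83 and 6.93. The fitted change with both clusters was 1.27 ± 0.30 (adjusted p = 0.0319). It rested largely on NCI-H716: without the array of that line with both clusters it was 0.77 (adjusted p = 0.187), and without the whole line 0.54 (adjusted p = 0.158). The call was also lost without the control of HUTU-80 or of NCI-H716, without HUTU-80, without the miR-200c141 sample of MDST8, or without the miR-200ba429 sample of HUTU-80 or NCI-H716. Of 4 probe sets 3 passed, with changes between 0.96 and 1.27 over all 4.

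RAB27B, the closest relative of RAB27A and likewise a docking factor for granules, fell in MDST8 and was slightly higher than control in NCI-H716. It was at 11.53 in the MDST8 control and 10.44, 10.92 and 9.70 with miR-200c141, miR-200ba429 and both clusters. In NCI-H716 the 4 levels in that order were 9.34, 9.65, 9.44 and 9.60, and in HUTU-80 it was below background, at 3.59 to 4.09. The fitted change with both clusters was -0.70 ± 0.35 and did not pass (adjusted p = 0.268). Its 2 other probe sets gave -0.73 and -0.58. In NCI-H716 both of these rose from the control, 1 from 4.71 to between 5.29 and 5.57 and the other from 4.13 to between 5.01 and 5.20, mostly below background. Without MDST8 the fitted change of RAB27B was 0.21, so the negative estimate rested on that line.

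RAB17, an epithelial GTPase of recycling and transcytosis, passed although it never reached the background level. It was at 3.23, 3.36 and 3.48 in the controls of HUTU-80, MDST8 and NCI-H716, and at 4.72 and 4.47 in MDST8 and NCI-H716 with both clusters. The single clusters gave values between 3.30 and 4.30. The 2 arrays with both clusters were the highest of the 12, and 8 of 9 construct arrays were above their control. The fitted change was 1.18 ± 0.26 (adjusted p = 0.0239). It lost the call in 7 of 14 fits that left out a line or a sample, namely each line, each control and the MDST8 sample with both clusters (0.97, adjusted p = 0.156).

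RAB11A, the ubiquitous GTPase of the recycling endosome, varied little. Its level was 12.02, 12.00 and 12.01 in the HUTU-80, MDST8 and NCI-H716 controls, 12.22 and 12.39 with both clusters in MDST8 and NCI-H716, and 11.97 to 12.20 with single clusters. Both arrays with both clusters were above the other 10. The fitted change of 0.31 ± 0.06 passed (adjusted p = 0.0204), but 2 further probe sets gave 0.18 and 0.03 and did not. The call was lost without HUTU-80 (adjusted p = 0.0884), its control (0.0567), the NCI-H716 control (0.0884), the NCI-H716 sample with both clusters (0.0766) or NCI-H716 (0.206). The other members of the RAB11 branch, RAB11B and the epithelial RAB25, were below background on all arrays, at 3.20 to 3.66 and 2.54 to 2.96. Their fitted changes with both clusters were 0.18 ± 0.15 and 0.19 ± 0.13 (adjusted p = 0.547 and 0.446).

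RAB1A, which carries vesicles from the endoplasmic reticulum to the Golgi, was the weakest of the 8 calls. Controls were at 11.73, 11.84 and 12.03 in HUTU-80, MDST8 and NCI-H716, and both clusters gave 12.14 in MDST8 and 12.36 in NCI-H716. Controls and arrays with both clusters did not overlap, while the single-cluster arrays of NCI-H716, at 12.20 and 12.25, lay above the MDST8 array with both clusters. The change of 0.33 ± 0.09 had an adjusted p of 0.0465, which was lost in 13 of 14 fits that left out a line or a sample, all except that without the MDST8 miR-200ba429 sample, with adjusted p up to 0.230. One further probe set passed with 0.56 and another gave -0.04. Its paralogue RAB1B had an estimate of 0.04 ± 0.12 and did not pass.

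**Figure D2:**
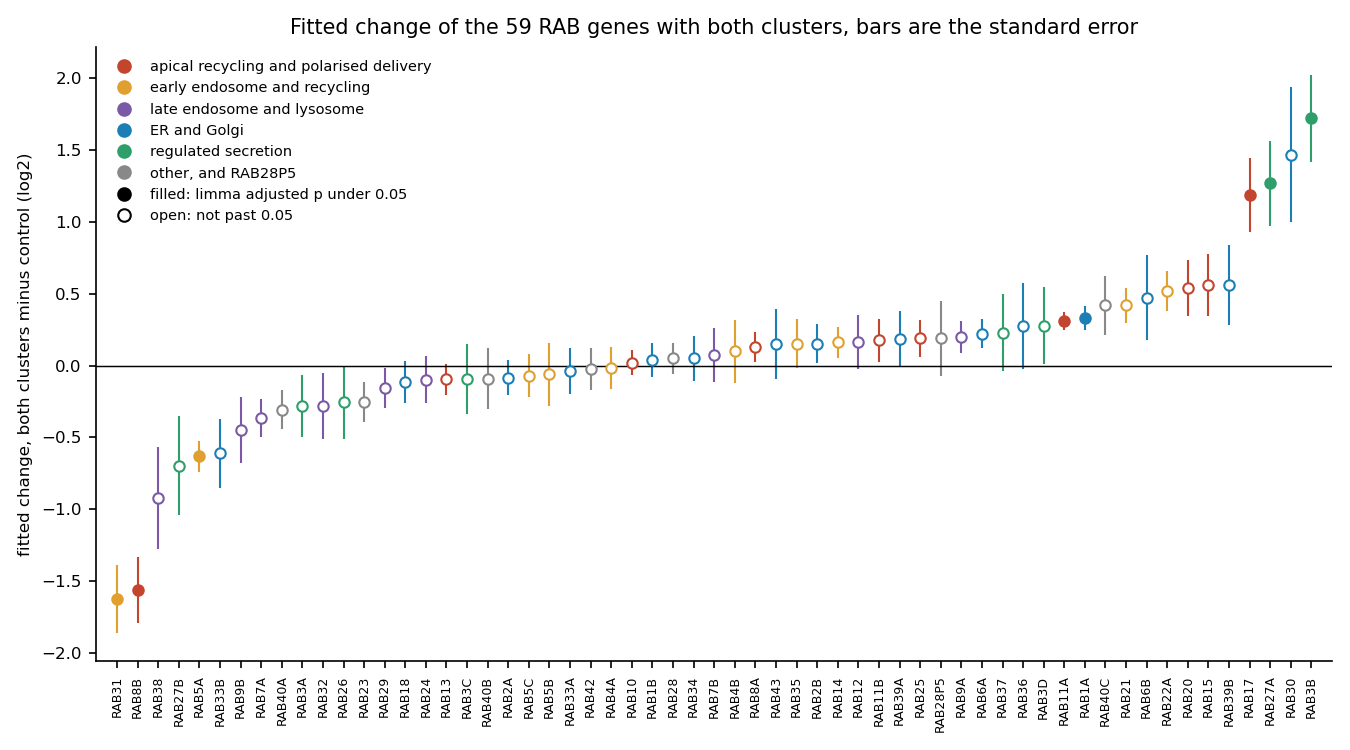
Fitted change on the log2 scale (vertical axis) of each of the 59 RAB genes with both clusters against control, from lowest to highest, with bars of 1 standard error and colours for the compartment each gene is known for. Filled points are the 8 genes past a limma adjusted p of 0.05, and open points such as RAB30 (1.47 ± 0.47) did not pass.

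Beyond these 8, RAB30, a Golgi GTPase, had the second highest estimate, 1.47 ± 0.47, and did not pass (adjusted p = 0.0949). In MDST8 it was at 5.52 in the control and 7.60, 6.49 and 8.20 with miR-200c141, miR-200ba429 and both clusters, while in NCI-H716 it was at 5.57 in the control and 6.05 to 6.42 on the construct arrays, and in HUTU-80 between 5.78 and 6.30. Of its 5 probe sets another passed, with 1.71. RAB22A, of early endosome sorting, and RAB21, of integrin endocytosis, were higher than control on all 9 construct arrays, with estimates of 0.52 ± 0.14 (adjusted p = 0.0559) and 0.42 ± 0.12 (0.0686) for both clusters. The other RAB21 probe set had the opposite sign, -0.30. RAB15 and RAB20, of endocytic recycling and epithelial endosomes, were also higher on all 9, with 0.56 ± 0.21 and 0.54 ± 0.19, and did not pass. RAB38, of lysosome-related organelles, had -0.92 ± 0.35 (adjusted p = 0.157). MDST8 went from 8.13 to 6.32 and NCI-H716 from 7.71 to 7.44. RAB39B, a Golgi GTPase of neurons, had 0.56 ± 0.28 (adjusted p = 0.266) and was above background on NCI-H716 arrays alone.

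By compartment, the counts below stand against 2.33% of all genes called higher, 3.81% called lower and 50.1% with a positive estimate. The 10 genes of apical recycling and polarised delivery gave 2 rises (RAB11A, and RAB17 below background) and 1 fall (RAB8B) with both clusters. They had 8 positive estimates, among them RAB17, RAB11B and RAB25, which were below background on all arrays. The median of 0.18 lay between RAB11B (0.176) and RAB25 (0.188). The 8 genes of regulated secretion gave 2 rises (RAB3B, RAB27A) and 4 positive estimates. The 10 early endosome and recycling genes gave 2 falls (RAB31, RAB5A) and 5 positive estimates, and the 15 genes of the endoplasmic reticulum and Golgi gave 1 rise (RAB1A) and 11 positive estimates. Among those 11 were RAB36 and RAB39A, below background on all arrays, and RAB39A is known from endosomes and phagosomes. None of the 9 genes of late endosome and lysosome passed (2 had an unadjusted p under 0.05 in limma). Of their estimates 3 were positive, RAB7B below background on all arrays among them, with a median of -0.16 over the 9. RAB7A, the late endosome GTPase, had -0.37 ± 0.13 (adjusted p = 0.132). In NCI-H716 the mean log2 level of the epithelial markers was 6.92 in the control and 9.28 with both clusters, with 5 and 7 of 8 above background. In MDST8 the mean was 4.23 and 4.50, with 1 and 2 above background, and 4.52 with miR-200c141 alone. There KRT18 (9.89 to 11.79) and KRT8 (4.61 to 5.58) rose with both clusters. EPCAM, KRT19, ESRP1 and CLDN4 were lower, and CDH1 and GRHL2 stayed near their control, all below background. The part of the epithelial markers in the changes of the apical genes was not tested.

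With single clusters no member passed. The miR-200c141 cluster gave 0 of 59 (background 0%), with 8 members at an unadjusted p under 0.05 in limma and a smallest adjusted p of 0.385, for RAB8B at -0.80 ± 0.20. RAB31 gave -0.75 ± 0.21, RAB38 -0.55, RAB3B 0.91 ± 0.26, RAB27A 0.90 ± 0.26 and RAB30 0.73. The miR-200ba429 cluster gave 0 of 59 (background 0%), with 6 at an unadjusted p under 0.05 and a smallest adjusted p of 0.789. The lowest estimates among genes above background on some array were -0.54 ± 0.22 for RAB26, a GTPase of secretory granules, -0.48 ± 0.21 for RAB31 and -0.48 ± 0.20 for RAB8B. The highest were 0.64 for RAB30, 0.61 ± 0.26 for RAB27A and 0.56 ± 0.26 for RAB3B. Any construct against control, over all 3 lines, gave 0 of 59 (background 0%), with 11 at an unadjusted p under 0.05 and a smallest adjusted p of 0.492, for RAB27A.

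Between the clusters, no member differed (0 of 59, background 0%, and 0 with an unadjusted p under 0.05 in limma). For RAB8B the difference, miR-200c141 minus miR-200ba429, was -0.32 with a 95% interval of -0.76 to 0.11, for RAB31 -0.28 (-0.73 to 0.18) and for RAB3B 0.35 (-0.23 to 0.92), so differences up to those bounds are not excluded. Both clusters against the mean of the single clusters gave 2 of 59, RAB5A and RAB31, against a background of 1.66%, both of them lower (background 1.39%). RAB5A was lower by an estimate of -0.60 ± 0.10 (adjusted p = 0.0134) and RAB31 by -1.01 ± 0.21 (adjusted p = 0.0455). RAB8B missed the threshold with -0.93 ± 0.20 (adjusted p = 0.0517). In this comparison too the further round of virus cannot be told apart from the added cluster. The response to any construct did not differ between lines for any member (0 of 59, background 0.00506%), with 4 at an unadjusted p under 0.05, RAB15, RAB32, RAB27A and RAB27B. That test recovered 16% of simulated differences of 1 log2 unit and 50% of those of 2, so its power was low.

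The lines differed in which RAB genes were above background. Level differed between lines for 42 of 59 members, against a background of 62.1%. In 11 members (18.6%, against 12.3% of all genes) a line was above background on all its arrays and another on none. RAB27B ranged over 7.83 log2 units between controls, the widest of the family, and was below background in HUTU-80. RAB38 was likewise below background in HUTU-80 alone, at 3.49 to 3.84 against 6.32 to 8.13 in MDST8 and 7.44 to 7.74 in NCI-H716. MDST8 alone had RAB26 below background, at 3.57 to 4.46 against 6.40 to 7.32 in HUTU-80 and 10.47 to 10.98 in NCI-H716. RAB3D of exocrine granules and RAB33B of the Golgi were also below it in MDST8 alone. For RAB33B the gap was small, 4.38 to 5.05 against 5.50 to 6.28 in NCI-H716.

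A different set was below background in NCI-H716. RAB34, known from Golgi and cilium, was at 3.31 to 3.58 there against 9.79 to 10.05 in HUTU-80 and 9.96 to 10.12 in MDST8, whose ranges overlapped. RAB32, of lysosome-related organelles, was at 3.16 to 4.13 against 9.27 to 9.46 and 9.55 to 9.67, and RAB43, of the Golgi, at 2.15 to 2.94 against 5.46 to 5.82 and 5.71 to 5.95. RAB37 and RAB3C, both of secretory vesicles, were above background in NCI-H716 alone, at 5.59 to 6.45 and 5.85 to 6.50. The other RAB37 probe set was below background there, at 3.33 to 3.56. RAB3A, of synaptic and secretory vesicle release, was below background in all lines, at 4.38 to 4.76 in NCI-H716. That line also had 2 of 3 neuroendocrine markers above background, CHGA and INSM1 but not SYP. RAB6B, a Golgi isoform abundant in neurons, was above background in HUTU-80 alone, at 8.09 to 8.98 against 3.89 to 4.73 in MDST8 and 3.39 to 3.50 in NCI-H716. Genes that crossed the background level within a line are not among these 11, such as RAB20 in HUTU-80 (4.75 in the control, up to 5.92), RAB31 in NCI-H716 and RAB3B in MDST8.

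**Figure D3:**
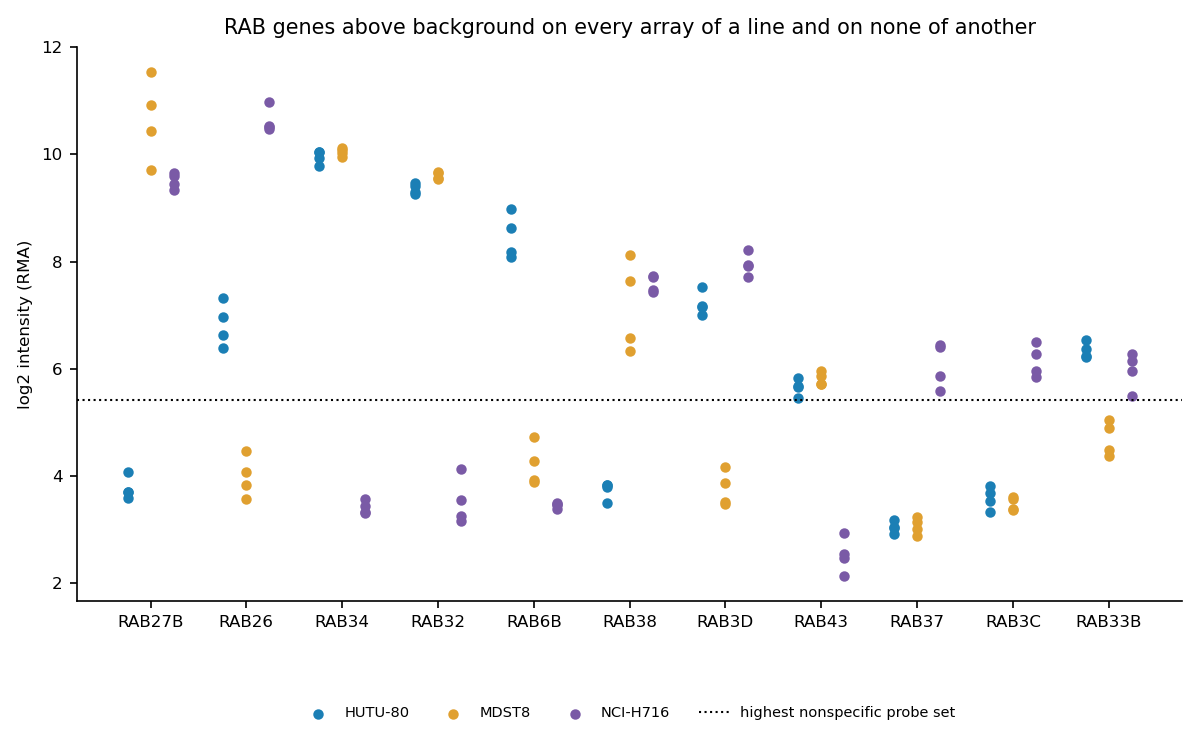
Log2 intensity (vertical axis) of the 11 RAB genes that were above background on all 4 arrays of at least 1 line and on none of another, each point an array and each colour a line. The dotted line is the background of 5.43. RAB37 and RAB3C are above it in NCI-H716 alone and RAB6B in HUTU-80 alone.

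Among 127 measured genes that load, inactivate, carry or bind RAB proteins, 15 passed with both clusters, 7 higher and 8 lower (11.8%, against 6.14% of all genes). The lists were drawn up with earlier results of these data known, so no enrichment can be read from that share. The 52 effectors held 11 of the 15, 7 higher and 4 lower. The 35 exchange factors gave 2 falls, DENND5A and DENND6A, the 34 GTPase-activating proteins 2 falls, TBC1D5 and TBC1D2B, and the 6 prenylation and carrier genes none (1 with an unadjusted p under 0.05 in limma). None of the 127 passed with a single cluster.

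The effectors of RAB11 moved in opposite directions. RAB11FIP1, a RAB11 and RAB25 effector, went from 6.25 in control to 8.47 with both clusters in MDST8 and from 7.22 to 8.33 for NCI-H716, a fitted change of 1.70 ± 0.22 (adjusted p = 0.00235). RAB11FIP2 was at 8.35 and 6.94 in MDST8 and at 7.46 and 5.69 in NCI-H716, a change of -1.57 ± 0.19 (adjusted p = 0.00146). RAB11FIP4 rose by 1.22 ± 0.29 (adjusted p = 0.0350), while RAB11FIP3 (0.70 ± 0.20, adjusted p = 0.0662) and RAB11FIP5 (0.07 ± 0.20) did not pass. MYO5B, the myosin motor recruited by RAB11, rose by 1.65 ± 0.28 (adjusted p = 0.00920), with levels of 7.07 and 9.02 in MDST8 and of 9.61 and 10.75 in NCI-H716, and stayed below background in HUTU-80. EXOC6, an exocyst subunit bound by RAB11 and RAB8, had a change of -1.72 ± 0.43 (adjusted p = 0.0420), nearly all of it in MDST8, from 8.84 to 5.86 against 8.01 to 7.51 in NCI-H716.

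Beside RAB27A, its effector EXPH5 passed with an estimate of 3.16 ± 0.72 (adjusted p = 0.0302), of which the size is uncertain because both controls were below background. It was at 3.81, 7.40, 5.24 and 8.94 in MDST8 as control, with miR-200c141, miR-200ba429 and both clusters, at 5.08, 6.88, 6.81 and 7.01 in NCI-H716, and below background in HUTU-80. Beside RAB5A, its effector RABEP1 fell by 1.25 ± 0.16 on the log2 scale (adjusted p = 0.00191). MDST8 went from 9.19 to 8.29 and NCI-H716 from 9.07 to 7.46. Of the dynein adaptors bound by RAB6, BICD2 was at -0.80 ± 0.18 and BICD1 at 1.43 ± 0.24 on its brightest probe set. The mean of all BICD1 probe sets gave -0.02. The RAB7 effectors PLEKHM1 and RUBCN rose by 1.04 ± 0.20 and 0.61 ± 0.12. TBC1D5, DENND5A, DENND6A and TBC1D2B had changes of -1.34 ± 0.15, -1.10 ± 0.16, -1.11 ± 0.18 and -0.79 ± 0.16.

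TBC1D5, RAB11FIP1, RAB11FIP2, RABEP1 and DENND5A passed in all 14 fits that left out a line or a sample. The calls of MYO5B and BICD1 were lost without the MDST8 sample with both clusters (1.28, adjusted p = 0.0768 and 1.03, 0.0637), and that of DENND6A without NCI-H716 (-1.07, 0.0775). Without the MDST8 sample with both clusters EXPH5 was at 1.81 (adjusted p = 0.243), EXOC6 at -0.64 (0.278), PLEKHM1 at 0.80 (0.127), RUBCN at 0.52 (0.102), TBC1D2B at -0.58 (0.146), BICD2 at -0.54 (0.196) and RAB11FIP4 at 1.14 (0.160). The MDST8 control, and the whole line, also ended these 7 calls, except that PLEKHM1 passed without the control. The NCI-H716 control ended those of EXPH5, EXOC6, RAB11FIP4, BICD2 and TBC1D2B, leaving out HUTU-80 those of BICD2, TBC1D2B, RUBCN, RAB11FIP4 and EXOC6, and the miR-200ba429 sample of HUTU-80 those of EXPH5 and EXOC6. EXOC6 kept its call in 3 of the 14 and RAB11FIP4 in 4. With the mean of all probe sets of a gene the estimates of BICD1 (-0.02), TBC1D2B (-0.06), RUBCN (0.23), RAB11FIP4 (0.56), PLEKHM1 (0.55), EXPH5 (1.93) and EXOC6 (-1.05) did not pass. With the ACTB 3′ to 5′ difference as a covariate none of the partner genes passed. The smallest estimates were then those of BICD2 (-0.10), EXOC6 (-0.15) and TBC1D2B (-0.25). Those of RAB11FIP4 (1.87), MYO5B (1.73), RABEP1 (-1.37) and DENND6A (-1.12) were no smaller than in the main fit.

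**Figure D4:**
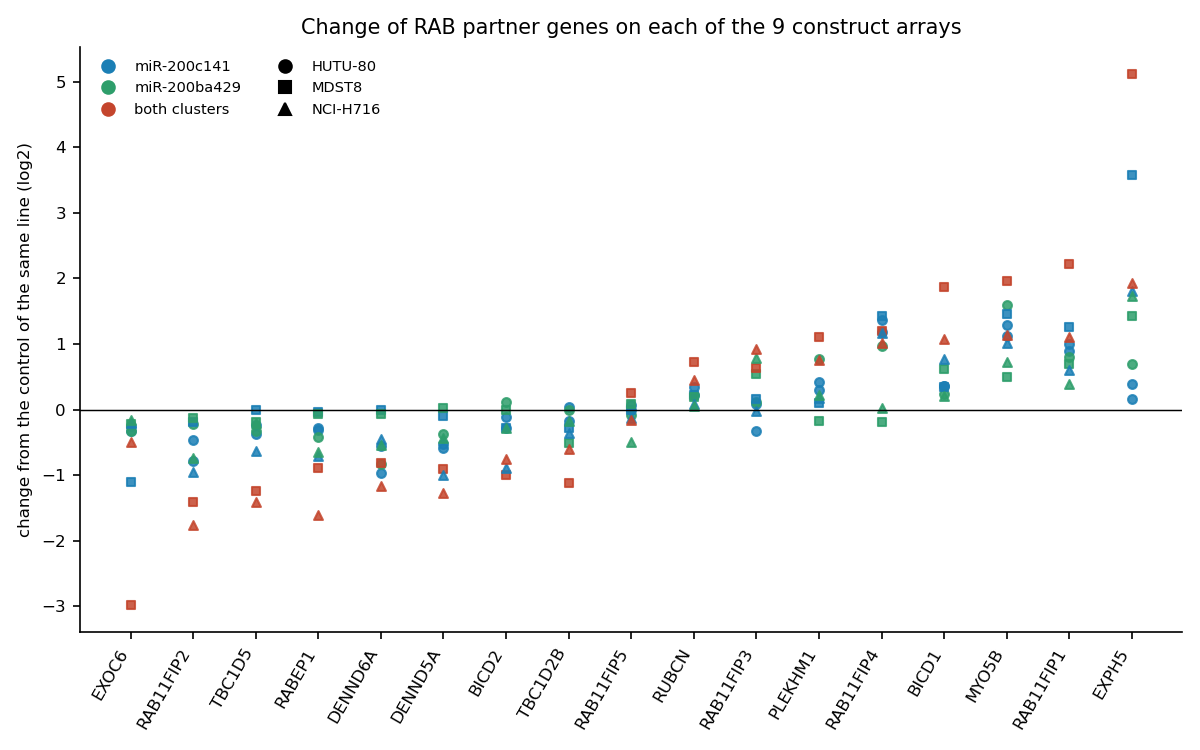
Log2 change from the control of the same line (vertical axis) on each of the 9 construct arrays for the 15 RAB partner genes past an adjusted p of 0.05 with both clusters and for RAB11FIP3 and RAB11FIP5, which did not pass. Colour gives the construct and shape the line. RAB11FIP2 lies below its control with both clusters in each line that had them and RAB11FIP1 is above its control on every array, and the widest spread is that of EXPH5.

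Promoters were read for CACCTG and CAGGTG, reverse complements of each other and together the E-box that ZEB1 is known to bind, because ZEB1 fell on the same arrays. The windows ran from 250 bases before to 50 after each RefSeq start site on GRCh38.p14. Of the 59 members 46 had a window, and 11 of them (23.9%) held the motif, against 24.1% of 27305 genes, so the family as a whole was not richer in it. Of the 4 genes with a window that passed upward, RAB17, RAB3B and RAB27A held it and RAB11A did not. None of the 3 that passed downward did, and RAB1A had no window in the table. The remaining holders of the motif did not pass with both clusters. Their estimates were 1.47 for RAB30, 0.52 for RAB22A, 0.19 for RAB25, 0.15 for RAB2B, -0.02 for RAB4A, -0.06 for RAB5B, -0.07 for RAB5C and -0.11 for RAB18. A link between motif and change was not tested. By window the motif was in 3 of 8 for the upward genes and 0 of 3 for the downward ones, against 20.6% of all windows. RAB17 held 3 motifs, a number reached by 0.635% of all windows, starting at -78, -63 and -29. RAB3B held 1 at -102, RAB27A 1 at -242 in 1 of its 5 windows, and RAB25 2, at -41 and 38. The 250 bases before the start are shown for RAB17 and RAB3B, the 2 members that passed upward and carry the motif nearest to the start, and for RAB25, an epithelial gene with the motif that was not measured above background, with the motifs in capitals. They are on the minus strand at chr2:237590735-237590984 for RAB17 and chr1:51990701-51990950 for RAB3B, and on the plus strand at chr1:156060910-156061159 for RAB25.
RAB17: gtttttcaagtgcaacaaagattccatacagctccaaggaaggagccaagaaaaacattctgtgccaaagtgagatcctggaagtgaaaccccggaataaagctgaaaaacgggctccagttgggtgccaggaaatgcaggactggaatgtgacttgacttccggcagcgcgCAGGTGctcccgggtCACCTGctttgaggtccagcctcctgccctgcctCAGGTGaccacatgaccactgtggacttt
RAB3B: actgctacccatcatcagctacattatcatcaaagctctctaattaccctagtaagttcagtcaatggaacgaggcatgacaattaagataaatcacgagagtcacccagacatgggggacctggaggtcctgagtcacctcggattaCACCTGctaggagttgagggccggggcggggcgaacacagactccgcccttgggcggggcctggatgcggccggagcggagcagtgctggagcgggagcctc
RAB25: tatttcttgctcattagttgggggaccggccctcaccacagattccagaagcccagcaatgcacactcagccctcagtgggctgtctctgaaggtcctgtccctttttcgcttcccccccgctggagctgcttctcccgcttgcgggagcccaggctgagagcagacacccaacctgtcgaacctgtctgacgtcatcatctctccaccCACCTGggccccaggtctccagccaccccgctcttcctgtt
A match describes these letters only, and binding of ZEB1 was not measured.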

How the data were processed

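The authors deposited RMA values of Affymetrix U133 Plus arrays, per the submitters' processing notes, on a log2 scale with 1 value a probe set. They entered unchanged. For RMA, version and settings: not given in the sources used here. SW620, named in the protocol, was not analysed here. Of 54715 probe sets, 40914 name a single gene and 864 several, which were left out. The brightest probe set stood for each of 19774 genes. The HUTU-80 pair of miR-200c141 arrays was averaged, leaving 11 samples.

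Groups came from the titles. Comparisons used limma 3.58.1 in R 4.3.3 (data.table, version 1.17.8) with terms for line and group, empirical Bayes with a trend, and two-sided p adjusted over all genes at 0.05, with 5 residual degrees of freedom (7 for any construct). Each line has a single control array, shared by its comparisons, and nothing says that arrays came from separate cultures, so p measures only the spread between these samples. The line pairs the samples: arrays of the same line correlated at 0.978 or above and of different lines at 0.885 or below. On simulated data the fits recovered 57% of changes of 1 log2 unit and 94% of 2 for both clusters, with 12 false calls. Precision is limited by the number of arrays.

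The members and the partner lists were chosen with earlier results of these data known. Named were members that passed, those of the 5 largest rises and falls with both clusters and 3 with single clusters above background, the 5 widest control ranges, RAB11A, RAB11B and RAB25, and partner genes that passed with MYO5B, EXPH5 and the RAB11FIP genes. Other RAB genes were named after their values were seen. Some genes of the partner lists are not reported here.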

Additional observations from a re-analysis of the deposited data

Results flagged for a closer look

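RAB27B moved in opposite directions between lines: every construct sample was lower than its control in MDST8 and higher in HUTU-80 and NCI-H716 once the HUTU-80 pair of miR-200c141 arrays (3.59 and 4.09 against 3.70 in the control) was averaged, with mean changes of -1.18, 0.07 and 0.23, so that the lines spanned 1.40 log2 units. The HUTU-80 values were below background. In the test of the response between lines over all genes this difference did not pass (limma adjusted p = 0.944).

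RAB32 was higher on every construct sample of MDST8 (mean 0.08) and lower on every one of NCI-H716 (mean -0.81), a span of 0.886 log2 units between lines. The NCI-H716 values were below background, and the difference did not pass either (limma adjusted p = 0.931).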

How the results depend on the processing

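The counts of 0 for single clusters, for any construct, between the clusters and for the response between lines were 0 under every alternative fitted, and the 42 members that differed in level between lines became 28 to 49. The 8 calls with both clusters became 5 with the mean of all probe sets (RAB11A at 0.17, RAB27A at 1.11 and RAB1A at 0.28 no longer passed), 5 without a variance trend, and 0 each with the ACTB 3′ to 5′ difference as a covariate, with no replicate block for the line, and with only the compared groups in the fit, which left 1 residual degree of freedom. Leaving out a line or a sample gave 3 to 8 calls, 3 without HUTU-80 or without the NCI-H716 control, 4 without the HUTU-80 control, and 5 without NCI-H716 or the MDST8 sample with both clusters. RAB31 and RAB8B passed in 24 of 27 alternatives, RAB3B in 23, RAB5A in 22, RAB11A in 17, RAB17 in 16 of 26, RAB27A in 13 and RAB1A in 8, and these 8 kept their direction in all.

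The 2 calls of both clusters against the mean of the single clusters became 1 after renewed quantile normalization and 0 without a trend, with the ACTB covariate and with no replicate block. Leaving out a line or a sample gave 0 to 4, 0 without HUTU-80, MDST8 or the MDST8 sample with both clusters, and 4 without the NCI-H716 miR-200c141 sample. In this comparison RAB5A passed in 20 and RAB31 in 11 of 27 alternatives. RAB27B with both clusters turned to 0.14 with the ACTB covariate, to 1.46 with no replicate block and to 0.21 without MDST8, ran from -1.52 (without NCI-H716) to that value when a line or sample was left out, and RAB38 to 0.34 with no replicate block. The response between lines could not be fitted without the only control of a line.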

Other observations

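Probe sets of 1 RAB gene did not always move together with both clusters. RAB4A, of fast recycling from early endosomes, had a change of -0.02 on its brightest probe set, -0.26 on another and -1.21 on a further one, which passed over all probe sets (limma adjusted p = 0.0145). Of 84 further probe sets of the members 53 had the sign of the one used, and among the 48 of these 84 above background 34 did. One probe set that names both RAB6C and RAB6A was left out of the gene table, and its level lay between 10.67 and 11.29.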
